A study of Mus musculus with 18 samples.

Results

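The genes described here are Mcm2, Mcm3, Mcm4, Mcm5, Mcm6, Mcm7, Mcm10, Cdc6 and Cdt1, which load and run the replicative helicase, and Pcna. Pcna encodes the clamp of the DNA polymerases and is not a loading factor, but all 10 are called licensing genes below. They were chosen by symbol from the 22238 gene symbols of a count table of mouse uterus, and all 10 were in the table and had enough counts to be tested among 15494 genes. Whole uteri of adult CD-1 mice, an outbred stock, were homogenised after ovariectomy, which all 6 groups share. The animals had received doxorubicin (DOX, an anthracycline that traps topoisomerase II on DNA) or phosphate-buffered saline (PBS), and in addition estradiol (E2), progesterone (P4) or the oil vehicle (OIL). The groups were DOX with E2, PBS with E2, DOX with P4, PBS with P4, DOX with OIL and PBS with OIL, each with 3 libraries of total RNA. The labels give no dose and no time of collection, and do not say whether libraries are separate animals, so the p-values describe the spread among libraries, which may be technical. The series asks how doxorubicin alters the response of the uterus to estrogen, and the comparisons below ask this of the licensing genes.

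Licensing is the step that lets each stretch of the genome be copied a single time in each cell cycle. Before S phase the origin recognition complex (ORC) recruits CDC6 and CDT1, which place the ring of MCM2 to MCM7 onto DNA in an inactive form. Kinases, CDC45 and the GINS complex then turn the ring into the moving helicase, with MCM10 needed for its activation, and PCNA, a ring of another kind, clamps the DNA polymerases to the new strand. Geminin holds CDT1 back once S phase has begun, and CDT1 protein is destroyed on PCNA during S phase. Transcription factors of the E2F family are known to drive many of these genes. In the uterus of an ovariectomized mouse, estradiol is known to send epithelial cells into DNA synthesis, and progesterone is known to hold that response back in the epithelium.

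Promoters are shown for Pcna and Mcm7, the genes with the largest and the smallest log2 fold change with E2 in the PBS arm. Mcm5, Cdc6 and Mcm3 are also shown. Among the other genes with a match to an E2F site, these 3 had the largest log2 fold changes there (0.78, 0.72 and 0.43). Mcm6 and Cdt1, with 3 and 1 matches and changes of 0.09 and -0.15, are not shown. A reader can set the letters beside the values that follow, but the choice of genes favours larger values. Each run is 300 bases, from 250 before to 50 after the RefSeq start, on build GRCm38.p6, and is written 5′ to 3′ on the gene's strand. Capitals mark exact matches, on either strand, to TTTCCCGC, TTTGGCGC, TTTCGCGC or TTTGCCGC, the letters searched for an E2F site.
Pcna, chr2:132253131-132253430, minus strand: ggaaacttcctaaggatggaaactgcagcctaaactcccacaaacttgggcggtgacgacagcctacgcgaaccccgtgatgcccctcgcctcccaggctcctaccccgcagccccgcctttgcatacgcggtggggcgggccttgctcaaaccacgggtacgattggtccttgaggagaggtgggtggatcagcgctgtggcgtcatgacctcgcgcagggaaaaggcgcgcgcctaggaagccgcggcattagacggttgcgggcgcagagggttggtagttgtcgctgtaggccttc
Mcm3, chr1:20820263-20820562, minus strand: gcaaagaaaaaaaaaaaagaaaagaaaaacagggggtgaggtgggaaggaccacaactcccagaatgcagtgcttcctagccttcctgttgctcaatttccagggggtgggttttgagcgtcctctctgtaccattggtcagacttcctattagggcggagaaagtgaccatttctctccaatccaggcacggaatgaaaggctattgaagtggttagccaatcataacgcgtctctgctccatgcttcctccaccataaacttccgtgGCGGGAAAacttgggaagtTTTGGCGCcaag
Mcm5, chr8:75109259-75109558, plus strand: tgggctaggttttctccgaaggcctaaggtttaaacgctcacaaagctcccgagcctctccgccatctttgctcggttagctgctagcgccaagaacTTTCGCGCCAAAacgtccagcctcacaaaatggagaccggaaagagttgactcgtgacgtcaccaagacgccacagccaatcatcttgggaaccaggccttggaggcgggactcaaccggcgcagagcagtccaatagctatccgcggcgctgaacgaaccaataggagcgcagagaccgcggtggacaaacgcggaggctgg
Cdc6, chr11:98907901-98908200, plus strand: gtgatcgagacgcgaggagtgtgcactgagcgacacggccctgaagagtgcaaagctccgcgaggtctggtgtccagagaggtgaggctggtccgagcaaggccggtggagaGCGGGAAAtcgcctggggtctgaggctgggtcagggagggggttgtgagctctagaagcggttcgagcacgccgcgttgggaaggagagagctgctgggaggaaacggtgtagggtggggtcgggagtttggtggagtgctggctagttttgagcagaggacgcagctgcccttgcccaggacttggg
Mcm7, chr5:138171834-138172133, minus strand: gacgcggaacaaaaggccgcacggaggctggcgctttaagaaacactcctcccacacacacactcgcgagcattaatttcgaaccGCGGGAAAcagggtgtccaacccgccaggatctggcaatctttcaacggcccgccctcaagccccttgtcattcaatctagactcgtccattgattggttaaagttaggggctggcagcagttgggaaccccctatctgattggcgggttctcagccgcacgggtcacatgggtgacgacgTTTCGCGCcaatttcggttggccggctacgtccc

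The RefSeq table covers 10 promoters of 9 licensing genes. An E2F match stood in 6 of these promoters, of 6 genes, and in 2.26% of all 32851 promoters of the same length. The 6 genes were Mcm3, Mcm5, Mcm6, Mcm7, Cdt1 and Cdc6. In Mcm5 the match TTTCGCGC on the sense strand, at positions -153 to -146 from the start, overlapped TTTGGCGC on the other strand. Mcm7 has a further RefSeq start in the table, at chr5:138171217-138171516, which held no E2F match. The letters CCAAT, the binding letters of the factor NF-Y, stood on either strand in 8 of the 10 promoters (7 of the 9 genes) and in 37.4% of all promoters. TTTGAA, the core letters of the element named CHR, stood in 1 of the 10 promoters, that of Mcm2, and in 17.9% of all promoters. Pcna held a CCAAT match and no E2F match in this window. These matches describe letters, not binding, and Mcm5, which rose with E2, and Mcm7, which fell, both held an E2F match.

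In GENCODE M21 (build GRCm38), all 10 are protein-coding genes. On the minus strand lie Mcm2 (chromosome 6, 88883474 to 88898780), Mcm3 (1, 20802968 to 20820312), Mcm4 (16, 15623897 to 15637400), Mcm6 (1, 128331590 to 128359664), Mcm7 (5, 138164583 to 138172422), Mcm10 (2, 4989714 to 5012791) and Pcna (2, 132249162 to 132253314). On the plus strand lie Mcm5 (8, 75109569 to 75128439), Cdc6 (11, 98907801 to 98923940) and Cdt1 (8, 122568015 to 122573554).

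The 18 libraries held 18042357 to 39783785 counts, and values below are CPM, the counts scaled by TMM to a common library size. Among the licensing genes, 2 were scarce, Mcm10 with 16 to 92 counts a library and Cdc6 with 32 to 172, so that their intervals are wide. Epithelial markers (12 keratin, claudin and related genes) summed to 1150 to 1632 CPM in DOX E2 libraries, 762 to 1160 in PBS E2, 764 to 1008 in DOX OIL and 674 to 1091 in PBS OIL. Stromal markers (10 genes) summed to 1922 to 2992 CPM in DOX E2, 3625 to 5358 in PBS E2, 5573 to 6517 in DOX OIL and 3814 to 6689 in PBS OIL. Adipocyte markers (12 genes) ran from 47.2 to 289 CPM in DOX E2 and from 385 to 6100 in PBS E2, with Plin1, Cidec and Lep at 0 in DOX E2 replicates 1 and 2 and Adipoq and Retn also at 0 in replicate 1. In DOX OIL they ran from 310 to 881 CPM and in PBS OIL from 849 to 3690. Smooth muscle markers (10 genes) summed to 8494 to 10451 CPM in DOX E2 and 10148 to 10896 in PBS E2. The part of these differences in cell content in the results was not tested, except where a fit with an adipocyte score is given.

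In most groups 1 library was highest for nearly all licensing genes. DOX E2 replicate 1 was the highest of its group for 10 of the 10 genes and replicate 2 the lowest for 10 of the 10. PBS OIL replicate 1 was the highest for 10 of 10, DOX P4 replicate 2 for 10 of 10, DOX OIL replicate 1 for 9 of 10 and PBS E2 replicate 2 for 8 of 10. In PBS P4 the highest library was split, with replicate 3 highest for 6 of the 10 genes, replicate 2 for 3 and replicate 1 for 1, and in PBS E2 the lowest was split between replicate 3 (5 genes), replicate 1 (4) and replicate 2 (1). A list of 20 mitosis genes shared some of this order and not all of it. For these, DOX E2 replicate 1 was highest for 20 of 20 and replicate 2 lowest for 20 of 20, and PBS OIL replicate 1 was highest for 20 of 20, but in PBS P4 replicate 2 was highest for 18 of 20, and DOX OIL replicate 3 was lowest for 20 of 20 where it was lowest for 5 of the 10 licensing genes. The summed mitosis genes were 177, 67.2 and 113 CPM in the DOX E2 replicates 1, 2 and 3, against 78.2, 123 and 66.7 CPM in the PBS E2 replicates. Since the genes share their libraries, 10 genes that move together are not 10 independent observations.

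**Figure D1:**
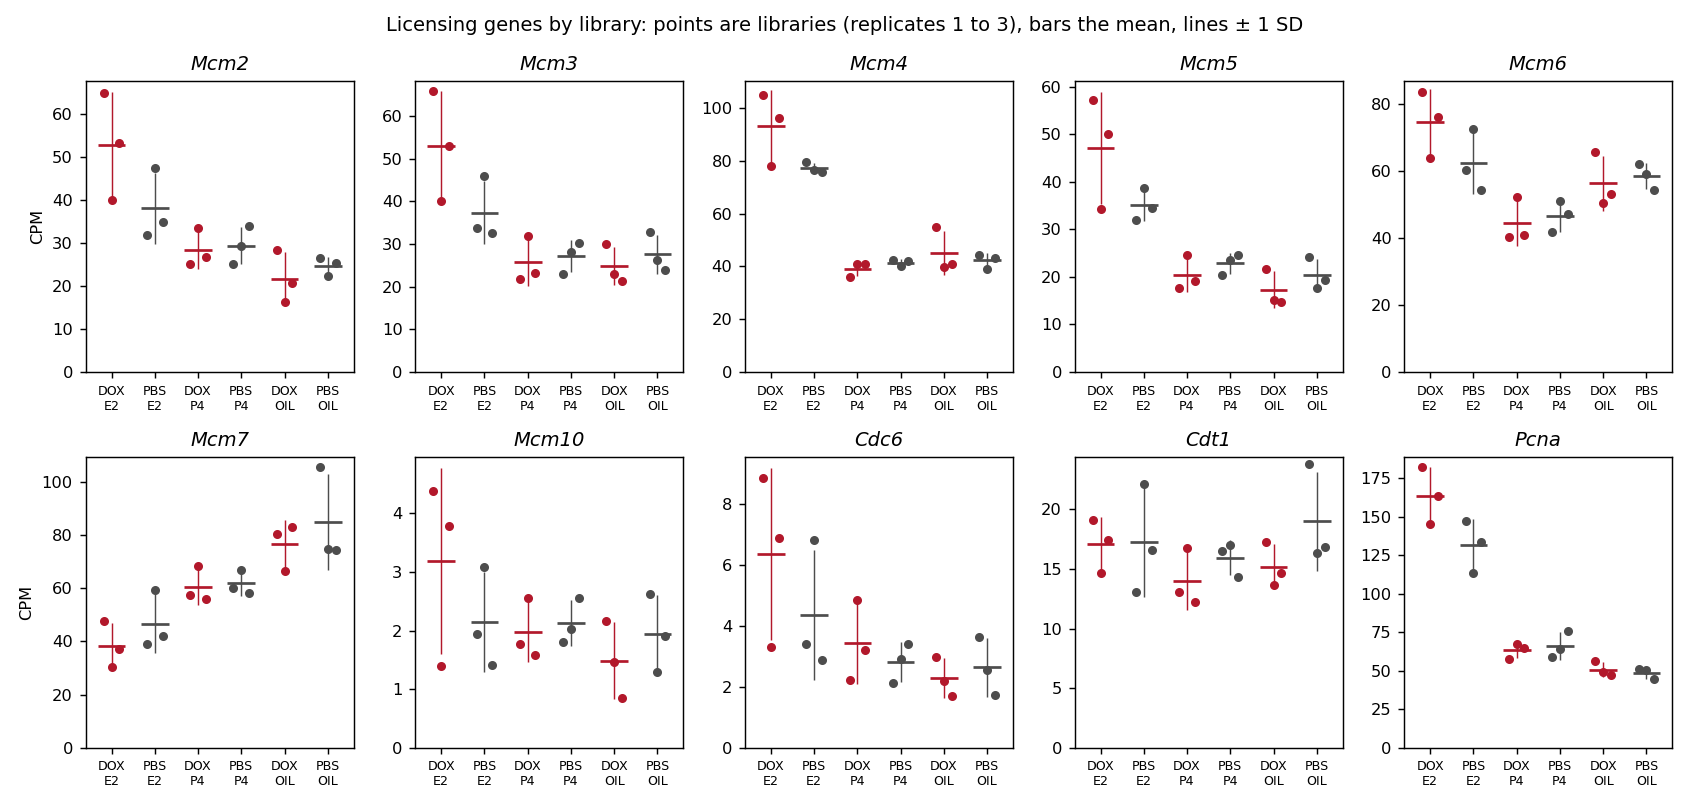
CPM (y axis, a panel for each gene, each from 0) of the 10 licensing genes in the 18 libraries, with DOX groups in red and PBS groups in grey, points for replicates 1 to 3 from left to right, a bar for the mean and a line for ± 1 SD. Pcna stands at 113 CPM or more in all 6 E2 libraries and at 75.9 or less in the other 12, while Mcm7 is lowest in the E2 groups.

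In both arms estradiol raised Pcna, Mcm2, Mcm4 and Mcm5 and lowered Mcm7. With DOX, 8 of the 10 genes were higher under E2 than under OIL and 1 was lower, where 72.6% of all tested genes were called (35.1% higher and 37.5% lower). With PBS, 4 were higher and 1 lower, where 61.4% of all tested genes were called (29.6% higher and 31.9% lower). The CPM of the E2 and OIL groups did not overlap for 6 genes higher and 1 lower with DOX, and for 4 and 1 with PBS. Over all 15494 tested genes these counts were 5673 and 6065 with DOX, and 4637 and 5032 with PBS. The median log2 fold change of the 10 genes was 1.09 in the DOX arm and 0.53 in the PBS arm, and over all tested genes it was -0.08 and -0.09. In whole tissue, more cells in cycle and more transcript per cell cannot be told apart, nor can fewer cells of a type and less RNA per cell.

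Pcna, the sliding clamp, had the largest response. It reached 182, 145 and 164 CPM in the DOX E2 libraries, against 56.4, 48.8 and 47.0 CPM in the DOX OIL libraries. With PBS it reached 147, 113 and 133 CPM under E2, against 51.3, 50.8 and 44.3 CPM under OIL. No E2 library overlapped an OIL library in either arm. Processed pseudogenes of Pcna, Pcna-ps1 and Pcna-ps2, are not rows of the table, and the sources used here do not say how reads that fit several places were counted. The log2 fold change was 1.69 ± 0.12 in the DOX arm (SE, n = 3 each, adjusted p = 7.02e-09) and 1.43 ± 0.12 in the PBS arm (adjusted p = 1.08e-07), by edgeR's quasi-likelihood test with Benjamini-Hochberg adjustment over all tested genes, as for all adjusted p-values below.

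Among the helicase subunits, Mcm4 rose in both arms with the least spread. It stood at 105, 78.2 and 96.4 CPM in DOX E2, against 54.8, 39.8 and 41.1 CPM in DOX OIL, and at 79.6, 76.6 and 75.9 CPM in PBS E2, against 44.4, 39.2 and 43.2 CPM in PBS OIL. All E2 libraries lay above all OIL libraries, by 1.04 ± 0.12 on the log2 scale in the DOX arm (adjusted p = 1e-06) and 0.87 ± 0.12 in the PBS arm (adjusted p = 1.25e-05).

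Mcm5 and Mcm2, further subunits of the ring, also rose in both arms. Mcm5 was at 57.2, 34.2 and 50.1 CPM in DOX E2, against 21.8, 15.2 and 14.8 CPM in DOX OIL, and at 31.96, 38.8 and 34.6 CPM in PBS E2, against 24.2, 17.7 and 19.4 CPM in PBS OIL. Its groups did not overlap, with log2 fold changes of 1.45 ± 0.20 (adjusted p = 6.76e-06) in the DOX arm and 0.78 ± 0.20 (adjusted p = 0.00271) in the PBS arm. Mcm2 was at 64.8, 39.9 and 53.2 CPM in DOX E2, against 28.2, 16.3 and 20.6 CPM in DOX OIL, and at 31.8, 47.4 and 34.9 CPM in PBS E2, against 26.5, 22.2 and 25.2 CPM in PBS OIL. Mcm2 also did not overlap between E2 and OIL in either arm, with log2 fold changes of 1.28 ± 0.21 (adjusted p = 5.97e-05) and 0.62 ± 0.21 (adjusted p = 0.0184). The Mcm2 call in the PBS arm was lost without PBS OIL replicate 2 (0.56, adjusted p = 0.0624) and without PBS E2 replicate 2 (0.44, adjusted p = 0.0981).

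Mcm3 and Mcm6, the remaining subunits that did not fall, were called in the DOX arm only. Mcm3 was at 65.9, 40.2 and 52.9 CPM in DOX E2, against 29.9, 23.0 and 21.4 CPM in DOX OIL, which did not overlap (1.10 ± 0.21, adjusted p = 0.00018). With PBS its 33.6, 45.9 and 32.5 CPM under E2 overlapped the 32.8, 26.2 and 24.0 CPM under OIL (0.43 ± 0.21, adjusted p = 0.0794), and without PBS OIL replicate 1 the difference was called (0.57, adjusted p = 0.0436). Mcm6 differed by 0.40 ± 0.14 in the DOX arm (adjusted p = 0.0171), with 63.9 to 83.6 CPM under E2 overlapping 50.3 to 65.6 CPM under OIL. With PBS, Mcm6 ran from 54.3 to 72.4 CPM under E2, against 54.3 to 61.95 CPM under OIL (0.09 ± 0.14, adjusted p = 0.582). The Mcm6 call in the DOX arm was lost without DOX OIL replicate 2 (adjusted p = 0.076), DOX OIL replicate 3 (adjusted p = 0.0593) or DOX E2 replicate 1 (adjusted p = 0.101), with values of 0.33, 0.36 and 0.30. The test of the difference between the arms, given below, did not pass for any of these genes.

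Mcm7 fell with E2 in both arms, unlike the other subunits of the same ring. It stood at 47.5, 30.4 and 37.1 CPM in DOX E2, against 80.5, 66.5 and 82.8 CPM in DOX OIL. With PBS it stood at 38.9, 59.2 and 41.8 CPM under E2, against 106, 74.6 and 74.2 CPM under OIL. Every E2 library was below every OIL library, and the log2 fold change was -0.999 ± 0.19 in the DOX arm (adjusted p = 0.000157) and -0.86 ± 0.18 in the PBS arm (adjusted p = 0.000785). Leaving out each library in turn kept the fall between -1.20 and -0.86 in the DOX arm and between -1.07 and -0.68 in the PBS arm, with all 12 calls kept.

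Of the loading factors, Cdc6, the ATPase that works with ORC, was called in the DOX arm and Cdt1, its partner, in neither. Cdc6 was at 8.88, 3.30 and 6.90 CPM in DOX E2, against 2.98, 2.20 and 1.68 CPM in DOX OIL, which did not overlap (1.47 ± 0.43, adjusted p = 0.00582). With PBS it was at 3.42, 6.83 and 2.88 CPM under E2, against 3.65, 2.55 and 1.72 CPM under OIL, which overlapped (0.72 ± 0.42, adjusted p = 0.153, 95% interval -0.18 to 1.62). Cdt1 was at 14.6 to 19.1 CPM in DOX E2, against 13.7 to 17.3 in DOX OIL (0.17 ± 0.20, adjusted p = 0.456, interval -0.25 to 0.59). With PBS, Cdt1 was at 13.03 to 22.1 CPM under E2, against 16.3 to 23.8 under OIL (-0.15 ± 0.20, adjusted p = 0.536, interval -0.56 to 0.27).

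Mcm10, the factor that helps to start the helicase, was the scarcest of the genes. It was at 4.39, 1.39 and 3.78 CPM in DOX E2, against 2.16, 1.47 and 0.842 CPM in DOX OIL, with DOX E2 replicate 2 among the OIL values. The log2 fold change of 1.09 ± 0.43 passed (adjusted p = 0.0343). It was lost without DOX OIL replicates 2 or 3 (1.07 and 0.81, adjusted p = 0.0763 and 0.132) or without DOX E2 replicates 1 or 3 (0.78 and 0.95, adjusted p = 0.155 and 0.0983). With PBS, Mcm10 was at 1.41 to 3.09 CPM under E2, against 1.3 to 2.63 under OIL (0.14 ± 0.43, adjusted p = 0.798).

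**Figure D2:**
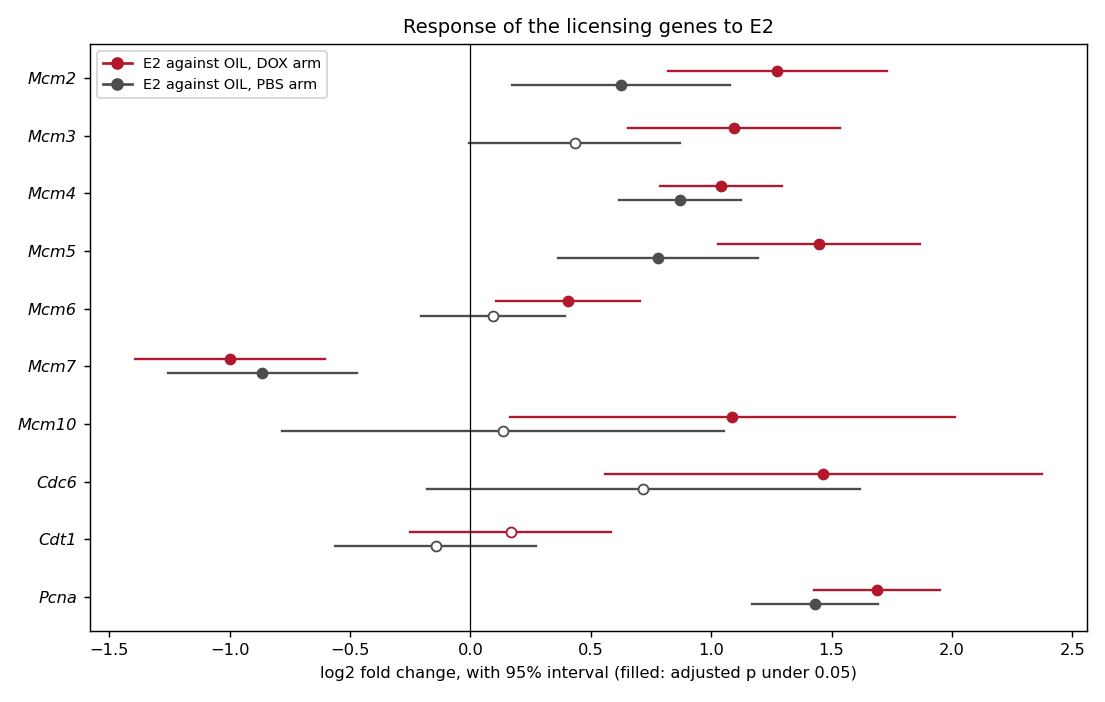
Log2 fold change of E2 against OIL (x axis) for each licensing gene, with its 95% interval, in the DOX arm (red) and the PBS arm (grey), filled where the adjusted p is under 0.05. Pcna lies farthest to the right in both arms, at 1.69 and 1.43, and Mcm7 lies below 0 in both, at -0.999 and -0.86.

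Because the ring holds MCM2 to MCM7 in equal number, the level of Mcm7 was also set against that of its partners within each library. This comparison was not among those planned. It restates the values above, in which Mcm7 fell and other subunits rose, so its p-values below are not an independent test. The log2 ratio is the log2 CPM per kilobase of exon of Mcm7 minus the mean of the log2 values of Mcm2 to Mcm6. It was -0.37, -0.42 and -0.52 in the DOX E2 replicates 1, 2 and 3, and 0.08, 0.38 and 0.19 in the PBS E2 replicates. It was 1.35, 1.20 and 1.21 in DOX P4 and 1.31, 1.28 and 1.01 in PBS P4. It was 1.39, 1.62 and 1.88 in DOX OIL and 1.82, 1.58 and 1.53 in PBS OIL. Mcm7 was the most abundant subunit transcript in all 12 OIL and P4 libraries, and Mcm4 was in all 6 E2 libraries. Mcm5 was the least abundant subunit in all 12 OIL and P4 libraries and in 4 of the 6 E2 libraries, and Mcm7 was in DOX E2 replicates 1 and 3.

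The mean ratio was -0.44 ± 0.07 in DOX E2 and 1.63 ± 0.24 in DOX OIL (SD, n = 3 each), a difference of -2.07. With PBS it was 0.22 ± 0.15 under E2 and 1.64 ± 0.16 under OIL, a difference of -1.42. With P4 it was 1.26 ± 0.08 in the DOX arm and 1.20 ± 0.17 in the PBS arm, which differed from OIL by -0.37 and -0.45. Under E2 the DOX libraries lay below the PBS libraries by -0.66. These 5 differences had groups that did not overlap, and each had an exact two-sided permutation p of 0.1, which is the smallest that 3 against 3 libraries allow, and 0.14 after adjustment over the 7 comparisons made. The ratio of DOX to PBS libraries differed by -0.01 under OIL (exact permutation p = 1) and by 0.06 under P4 (exact permutation p = 0.8). Because it is taken within a library, the ratio does not depend on how libraries were scaled.

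Mcm7 holds 2962 exon bases in GENCODE M21. Of these, 321 are shared with Ap4m1, a subunit of an adaptor complex of vesicle transport, and 64 with Cops6, a subunit of the COP9 signalosome, both on the opposite strand. The sources used here do not give the strand setting of the counting, so reads of Mcm7 and of these neighbours cannot be told apart in the shared bases. Ap4m1 also fell with E2, by -1.09 ± 0.14 in the DOX arm (adjusted p = 3.34e-06) and -0.58 ± 0.14 in the PBS arm (adjusted p = 0.00172). Its level was 19.0 CPM in DOX E2 and 27.1 in PBS E2, against 40.6 in DOX OIL and 40.6 in PBS OIL, on average. Cops6 rose, by 0.93 ± 0.08 and 0.38 ± 0.08 (adjusted p = 6.74e-08 and 0.00096). The gene also hosts the microRNAs Mir25, Mir93 and Mir106b, which are not rows of the table.

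**Figure D3:**
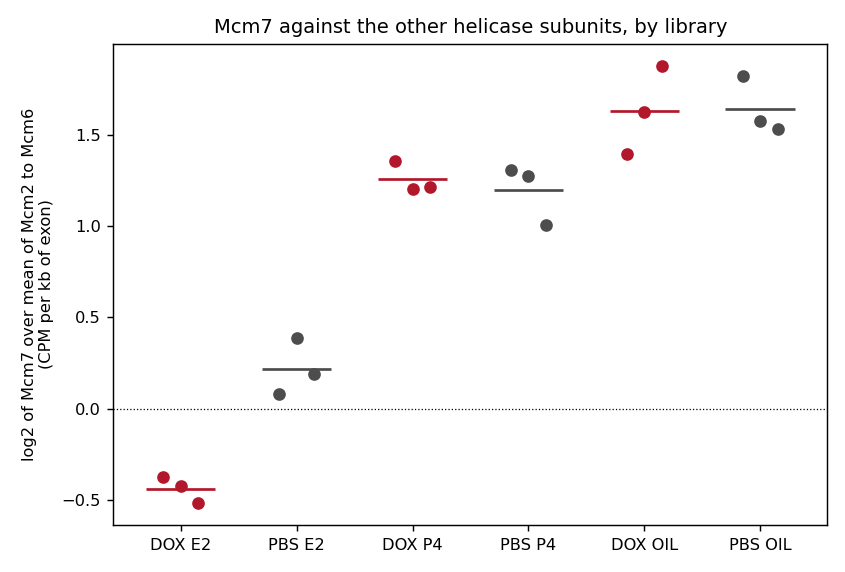
Log2 ratio of Mcm7 to the geometric mean of Mcm2 to Mcm6 in CPM per kilobase of exon (y axis) in each library, with DOX in red and PBS in grey and a bar for the mean of each group. The 3 DOX E2 libraries sit below 0 and the 3 PBS E2 libraries between 0.08 and 0.38, while the 12 P4 and OIL libraries sit between 1.01 and 1.88.

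Compared per kilobase of exon, Pcna was the most abundant of the 10 transcripts in each group, with 108 CPM per kilobase in DOX E2, 86.6 in PBS E2, 41.7 in DOX P4, 43.5 in PBS P4, 33.4 in DOX OIL and 32.1 in PBS OIL. Mcm7 ranked 2 among the genes in the OIL and P4 groups, 3 in PBS E2 and 7 in DOX E2. Cdc6 and Mcm10 ranked 9 and 10 in all 6 groups, between 0.30 and 1.33 CPM per kilobase. Mcm4 had 25.9 CPM per kilobase and Cdc6 1.33 in DOX E2, against 12.6 and 0.48 in DOX OIL. Cdt1, the other loading factor, was at 7.80 CPM per kilobase in DOX E2, below all 6 subunits of the ring, and at 6.94 in DOX OIL, above Mcm2 (6.44) and Mcm5 (4.99).

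By mean CPM, the DOX E2 group was the highest of the 6 and the PBS E2 group came next for Mcm2, Mcm3, Mcm4, Mcm5, Mcm6, Mcm10, Cdc6 and Pcna. Most neighbours in that order overlapped. The neighbours that did not were PBS E2 above DOX OIL for Mcm4, PBS E2 above PBS P4 for Mcm5, and PBS E2 above PBS P4 and DOX P4 above DOX OIL for Pcna. For Mcm7 and Cdt1 the PBS OIL group was the highest, with means of 84.8 ± 17.98 and 19.0 ± 4.16 CPM (SD, n = 3).

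Under E2, doxorubicin changed Pcna alone among the 10 genes by the test, where 41% of all tested genes were called (20.4% higher and 20.6% lower). Pcna was at 182, 145 and 164 CPM in DOX E2, against 147, 113 and 133 CPM in PBS E2. These overlapped, with DOX E2 replicate 2 below PBS E2 replicate 1, and the log2 fold change was 0.32 ± 0.12 (adjusted p = 0.0454, interval 0.06 to 0.57). Pcna was no longer called without DOX E2 replicate 1 (0.21, adjusted p = 0.231), DOX E2 replicate 3 (0.31, 0.0861), PBS E2 replicate 2 (0.22, 0.196) or PBS E2 replicate 3 (0.32, 0.0895), nor with DESeq2 size factors (0.31, adjusted p = 0.0564), with no filter (0.29, 0.0747), in a fit of the compared groups alone (0.28, 0.114) or with the adipocyte score (0.38, 0.141).

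The other 9 genes did not pass, with log2 fold changes of -0.28 to 0.57, and the groups overlapped for all 10, where 49.3% of all tested genes had groups that did not overlap. At an unadjusted p under 0.05 stood 5 of the 10 genes, against 7645 of all 15494 tested genes. Beside Pcna, the intervals of 4 genes lay above 0 before adjustment: Mcm3 at 0.51 ± 0.20 (adjusted p = 0.0582), Mcm2 at 0.47 ± 0.21 (adjusted p = 0.0855), Mcm5 at 0.43 ± 0.19 (adjusted p = 0.0871) and Mcm4 at 0.27 ± 0.12 (adjusted p = 0.0806). Their calls changed with 1 library, DOX E2 replicate 2, the lowest of its group for every licensing and mitosis gene. Without it 5 genes were called, with Mcm3 at 0.67 (adjusted p = 0.0227), Mcm2 at 0.63 (adjusted p = 0.0349), Mcm5 at 0.61 (adjusted p = 0.0193) and Mcm4 at 0.38 (adjusted p = 0.0226) beside Pcna. Without PBS E2 replicate 2, Mcm2 and Mcm3 were called, at 0.66 (adjusted p = 0.0377) and 0.68 (adjusted p = 0.0299). With each library left out in turn, 4684 to 6822 of all tested genes were called, against 6358 with all libraries. Limma voom, which gives less weight to libraries that vary more, called 6 of the 10, Pcna, Mcm2, Mcm3, Mcm4, Mcm5 and Mcm6. The share of all tested genes that limma voom called under E2 is not given here. Whether its higher count is particular to the licensing genes was therefore not tested. Mcm7 lay at -0.28 ± 0.19 (adjusted p = 0.24) and Cdt1 at -0.01 ± 0.20 (adjusted p = 0.974, interval -0.43 to 0.41).

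Without hormone and with P4, doxorubicin changed none of the 10 genes by the test. Under OIL, 0.0129% of all tested genes were called, and the 10 genes ran from -0.38 (Mcm10) to 0.10 (Mcm4). Under P4, 0% of tested genes were called, and they ran from -0.19 (Cdt1) to 0.29 (Cdc6). At an unadjusted p under 0.05 the count was also 0 of the 10 in both, against 1253 and 822 of all tested genes, and DESeq2 and limma voom also called 0 of the 10 in each. The intervals bound the size of a change for the abundant genes: Pcna ran from -0.20 to 0.32 under OIL and from -0.32 to 0.19 under P4, and Mcm4 from -0.16 to 0.35 and from -0.33 to 0.17. For Mcm10 under OIL the interval ran from -1.31 to 0.56, and changes within it are not excluded.

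**Figure D4:**
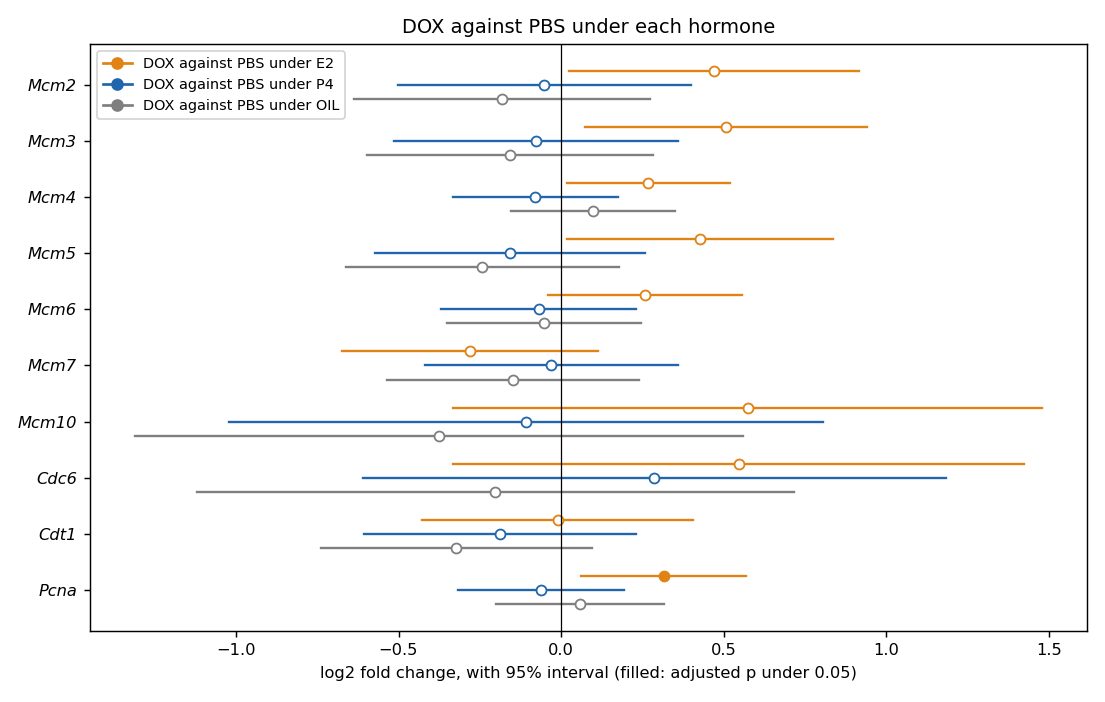
Log2 fold change of DOX against PBS (x axis) for each licensing gene with its 95% interval, under E2 (orange), P4 (blue) and OIL (grey), filled where the adjusted p is under 0.05. Only Pcna under E2, at 0.32, is filled, and under E2 8 of the 10 points lie to the right of 0.

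Whether doxorubicin altered the E2 response itself was asked by the interaction of E2 and DOX, which equals the E2 response in the DOX arm minus that in the PBS arm. It was called for 0 of the 10 genes, where 22.9% of all tested genes were called. The 3 largest by p were Mcm5 at 0.67 ± 0.27 (adjusted p = 0.0892), Mcm3 at 0.66 ± 0.29 (adjusted p = 0.108) and Mcm2 at 0.65 ± 0.30 (adjusted p = 0.127), each with an unadjusted p under 0.05, and DESeq2 and limma voom also called 0. Over all 15494 tested genes, 5759 had an unadjusted p under 0.05. Without DOX OIL replicate 1, Mcm2 at 0.89 (adjusted p = 0.0423) and Mcm5 at 0.87 (adjusted p = 0.0345) were called, and without DOX E2 replicate 2 Mcm5 was called at 0.85 (adjusted p = 0.0311). The fits without a library called 2427 to 4898 of all tested genes, against 3553 with all libraries. Pcna differed between the arms by 0.26 ± 0.17 (adjusted p = 0.285) and Mcm7 by -0.13 ± 0.26 (adjusted p = 0.743). The E2 responses of the arms have separate OIL groups, but each shares its E2 group with the comparison of DOX and PBS under E2.

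With P4, 1 of the 10 licensing genes was called in the PBS arm and 0 in the DOX arm. In the PBS arm, where 31.8% of all tested genes were called (16.2% higher), Pcna alone was called, at 58.7, 63.8 and 75.9 CPM under P4, against 51.3, 50.8 and 44.3 CPM under OIL. These did not overlap, and the log2 fold change was 0.44 ± 0.12 (adjusted p = 0.0131). The call was lost without PBS OIL replicate 3 (0.38, adjusted p = 0.0508) and without PBS P4 replicate 3 (0.33, adjusted p = 0.0756). In the DOX arm, where 29.8% of all tested genes were called, none of the 10 was, and Pcna at 57.9, 67.3 and 64.8 CPM under P4 lay above its 56.4, 48.8 and 47.0 CPM under OIL (0.32 ± 0.12, adjusted p = 0.0584). An unadjusted p under 0.05 was found for 2 of the 10 genes in the DOX arm and 3 in the PBS arm. Over all 15494 tested genes it was found for 6319 and 6674. In the DOX arm DESeq2 and limma voom called 1 of the 10, Pcna. Mcm6 lay at -0.34 ± 0.14 and -0.33 ± 0.14 (adjusted p = 0.0797 and 0.0886) and Mcm7 at -0.34 ± 0.18 and -0.46 ± 0.18 (adjusted p = 0.176 and 0.068) in the DOX and PBS arms. In the PBS arm Mcm6 was at 41.6 to 50.98 CPM under P4, against 54.3 to 61.95 under OIL, and Mcm7 at 58.2 to 66.9 CPM under P4, against 74.2 to 106 under OIL, and neither overlapped. Of all 15494 tested genes in that arm, 3559 lay higher and 3589 lower without overlap. In the DOX arm these counts were 3775 and 3948. The scarce genes had wide intervals, for Cdc6 -0.33 to 1.48 in the DOX arm and -0.82 to 0.998 in the PBS arm. Cell type markers also moved with P4. Adipocyte markers summed to 132 to 436 CPM in PBS P4, against 849 to 3690 in PBS OIL, with a median log2 fold change of -3.56, and to 107 to 524 CPM in DOX P4, against 310 to 881 in DOX OIL. Smooth muscle markers summed to 13661 to 18094 CPM in PBS P4, against 7473 to 8667 in PBS OIL, and 7 of 10 were called higher. Stromal markers summed to 6453 to 7761 CPM in PBS P4, against 3814 to 6689 in PBS OIL, and 6 of 10 were called higher. In the DOX arm 6 of 10 smooth muscle and 8 of 10 stromal markers were called higher. The part of these markers in the P4 values was not tested, beyond the fit with the adipocyte score, in which Pcna and Mcm7 were called in the PBS arm. The interaction of P4 and DOX was called for 0 of the 10, where 0.00645% of all tested genes were called, with 0 at an unadjusted p under 0.05 and 0 by DESeq2 and limma voom. Over all 15494 tested genes, 525 had an unadjusted p under 0.05.

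Around the licensing genes, other steps of replication did not all move the same way with E2. The counts of each list below stand against the shares of all tested genes given above, which were 35.1% higher and 37.5% lower with E2 in the DOX arm, and 29.6% and 31.9% in the PBS arm. Of the 6 ORC genes, which mark origins, 5 rose and 0 fell in the DOX arm, and 2 rose and 1 fell in the PBS arm. Orc2 rose by 1.66 ± 0.13 and 1.42 ± 0.13 (adjusted p = 1.33e-08 and 1.89e-07) and Orc4 by 0.88 ± 0.11 and 0.78 ± 0.11 (adjusted p = 2.99e-06 and 1.84e-05). Orc3 and Orc6 rose in the DOX arm, by 0.56 ± 0.09 and 0.42 ± 0.10 (adjusted p = 5.47e-05 and 0.00105), and Orc5 fell in the PBS arm, by -0.41 ± 0.10 (adjusted p = 0.0016). Under E2, 5 of the 6 ORC genes were higher with DOX than with PBS and 0 lower, where 20.4% of all tested genes were called higher and 20.6% lower, among them Orc3 at 0.55 ± 0.09 (adjusted p = 0.000338), Orc5 at 0.43 ± 0.10 (adjusted p = 0.00246) and Orc6 at 0.40 ± 0.10 (adjusted p = 0.00408). Orc4, at 0.39 ± 0.11 (adjusted p = 0.0114), was lost without DOX E2 replicate 1 (0.30, adjusted p = 0.0729). The median over the ORC genes was 0.41, and over all tested genes it was 0.02.

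Of 7 genes that restrain licensing or act on CDT1 or the ring, 2 rose and 2 fell with E2 in each arm. Cdkn1b (p27), an inhibitor of the kinases that fire origins, fell by -2.27 ± 0.13 and -1.50 ± 0.13 in the DOX and PBS arms (adjusted p = 8.7e-10 and 1.02e-07), and Cdkn1c (p57), a related inhibitor, by -1.25 ± 0.15 and -0.95 ± 0.15 (adjusted p = 1.91e-06 and 5.14e-05). Cdkn1a (p21), another of the family and a target of p53, rose by 2.09 ± 0.34 and 2.44 ± 0.35 (adjusted p = 4.68e-05 and 2.12e-05). Mcmbp, a binding partner of the MCM subunits, rose by 0.87 ± 0.07 and 0.83 ± 0.07 (adjusted p = 1.85e-08 and 1e-07). Under E2, Cdkn1c and Cdkn1b were lower with DOX than with PBS, by -0.62 ± 0.15 and -0.50 ± 0.13 (adjusted p = 0.00469 and 0.00575), and 0 of the 7 were higher. Gmnn, which encodes geminin, was at 0.93 to 3.41 CPM in DOX E2 and 1.84 to 2.28 in DOX OIL (0.06 ± 0.40, adjusted p = 0.908), and at 1.10 to 2.71 CPM in PBS E2 and 2.51 to 4.32 in PBS OIL (-0.82 ± 0.40, adjusted p = 0.0848). Without PBS E2 replicate 2 the Gmnn value in the PBS arm was -1.24 and was called (adjusted p = 0.0207).

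Of 16 genes that fire origins or join the helicase, 6 rose and 1 fell in the DOX arm, and 4 rose and 2 fell in the PBS arm, so that the shares that rose were near those of all tested genes. Gins4, a subunit of the GINS complex, fell by -1.28 ± 0.10 and -0.70 ± 0.10 (adjusted p = 1.7e-08 and 1.86e-05). Tipin, a protein of the moving fork, rose by 0.95 ± 0.09 and 0.56 ± 0.09 (adjusted p = 7.15e-08 and 3.99e-05). Topbp1 and Mtbp, which help to fire origins, rose in the DOX arm by 0.57 ± 0.08 and 0.75 ± 0.17 (adjusted p = 1.09e-05 and 0.00101). Cdc7, the kinase that acts on the ring, fell in the PBS arm by -0.57 ± 0.11 (adjusted p = 0.000295), and Timeless, the partner of Tipin, rose there by 0.44 ± 0.14 (adjusted p = 0.011), a call lost without PBS OIL replicate 3 (0.31, adjusted p = 0.0597). Under E2, 4 of the 16 were higher and 1 lower with DOX, with Cdc7 at 0.67 ± 0.11 (adjusted p = 0.000263) and Gins4 at -0.56 ± 0.10 (adjusted p = 0.000621). Mcm8 and Mcm9, relatives of the ring that act in DNA repair, fell in both arms, Mcm8 by -0.54 ± 0.15 and -0.48 ± 0.15 and Mcm9 by -0.34 ± 0.10 and -0.30 ± 0.10 (adjusted p = 0.00399, 0.0111, 0.00924 and 0.0197). In the PBS arm the Mcm8 call was lost without PBS OIL replicate 1 (-0.39, adjusted p = 0.05), and the Mcm9 call without PBS OIL replicate 1 or PBS E2 replicates 1 or 3 (-0.28, -0.22 and -0.29).

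Of 12 polymerase and primase genes, 4 rose and 4 fell in each arm, near the shares of all tested genes. Pole4, a small subunit of polymerase epsilon, rose by 1.58 ± 0.10 and 1.23 ± 0.09 (adjusted p = 1.17e-09 and 3.93e-08), and Pold4, a small subunit of polymerase delta, fell by -1.16 ± 0.15 and -1.27 ± 0.15 (adjusted p = 3.38e-06 and 2.5e-06). Of 15 genes of the clamp loader and the fork, 4 rose and 2 fell in the DOX arm and 1 rose and 3 fell in the PBS arm. Fen1, the nuclease that trims Okazaki fragments on PCNA, rose by 1.19 ± 0.16 in the DOX arm (adjusted p = 6.8e-06). In the PBS arm Fen1 rose by 0.41 ± 0.16 (adjusted p = 0.0378) with groups that overlapped, a call kept in 2 of 6 fits without a library. Rpa3, a subunit of the protein that coats single strands, fell by -1.11 ± 0.17 and -0.82 ± 0.17 (adjusted p = 2.26e-05 and 0.000544), and Rfc1, the large subunit of the loader of PCNA, fell in the PBS arm by -0.35 ± 0.08 (adjusted p = 0.00173). Of 8 genes of nucleotide synthesis, 4 rose and 2 fell in the DOX arm and 1 rose and 2 fell in the PBS arm. Rrm2, the S phase subunit of ribonucleotide reductase, was at 7.58 to 13.8 CPM in DOX E2 and 2.72 to 4.90 in PBS E2, which did not overlap (1.40 ± 0.30, adjusted p = 0.00197).

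A further list held 15 genes of the E2F family, its pocket proteins, cyclin E, cyclin A2 (Ccna2) and their kinase Cdk2. Of these, 7 rose and 4 fell in the DOX arm and 4 rose and 3 fell in the PBS arm. E2f4 rose by 1.47 ± 0.09 and 1.26 ± 0.09 (adjusted p = 1.39e-09 and 2.1e-08) and E2f6 by 1.32 ± 0.11 and 0.87 ± 0.11 (adjusted p = 2.54e-08 and 4.5e-06), both known mainly as repressors. E2f3, known as an activator, rose by 1.09 ± 0.17 in the DOX arm (adjusted p = 2.46e-05). Rbl2 (p130), a pocket protein of resting cells, fell by -2.18 ± 0.16 and -1.09 ± 0.16 (adjusted p = 9.26e-09 and 2.06e-05), and under E2 it was lower with DOX than with PBS by -1.05 ± 0.16 (adjusted p = 0.000156).

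Of 20 mitosis genes, 2 rose and 3 fell with E2 in the DOX arm, where 35.1% of all tested genes rose and 37.5% fell. In the PBS arm 0 rose and 7 fell, where 29.6% rose and 31.9% fell, so that the share that fell was near that of all genes. The median log2 fold changes were -0.19 and -0.79. Nusap1, a spindle protein, fell by -1.41 ± 0.37 and -1.35 ± 0.37 (adjusted p = 0.00284 and 0.0047), and Tpx2, which nucleates the spindle, rose in the DOX arm by 0.95 ± 0.27 (adjusted p = 0.00468). Mki67, the gene of the proliferation marker Ki-67, was at 7.17 to 21.5 CPM in DOX E2 and 13.1 to 29.6 in DOX OIL (-0.65 ± 0.45, adjusted p = 0.203), and at 7.07 to 22.2 CPM in PBS E2 and 19.97 to 39.9 in PBS OIL (-1.19 ± 0.45, adjusted p = 0.0322). Mki67 is named here after its values were seen. Doxorubicin changed 0 of the 20 under E2, with 2 at an unadjusted p under 0.05 and a median of 0.37, which was also the median of the 10 licensing genes. Over all 15494 tested genes, 41% were called and 7645 had an unadjusted p under 0.05.

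**Figure D5:**
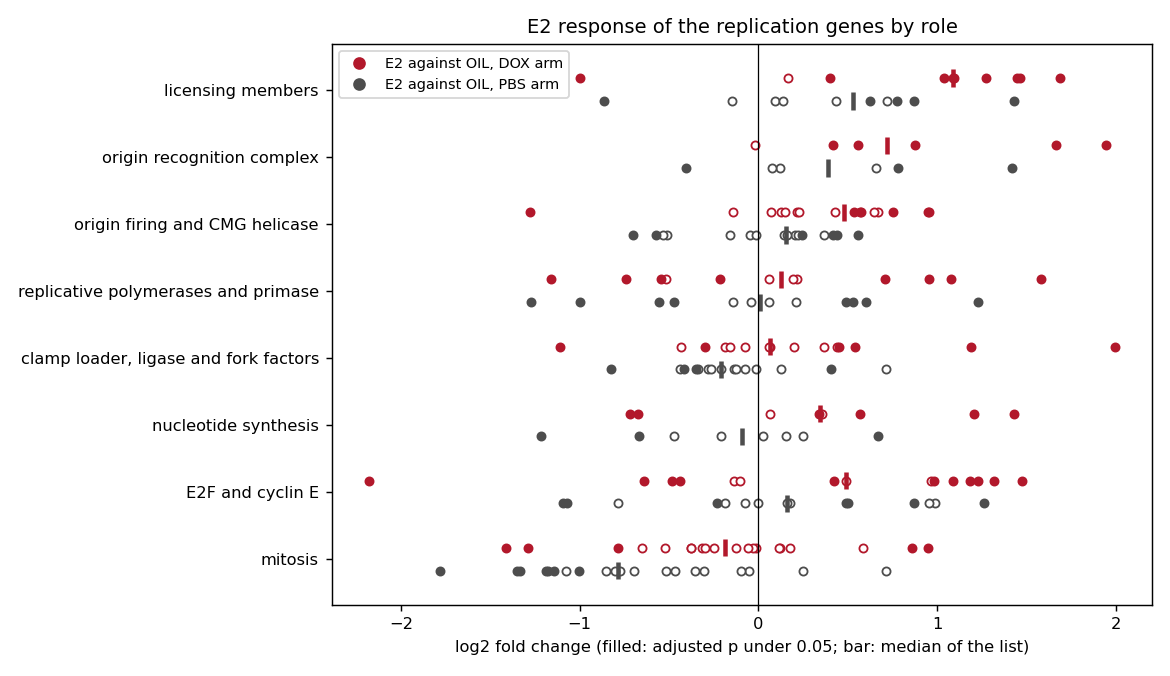
Log2 fold change of E2 against OIL (x axis) for the genes of each role, in the DOX arm (red) and the PBS arm (grey), filled where the adjusted p is under 0.05, with a bar at the median of the list. The licensing genes have medians of 1.09 and 0.53, and the mitosis genes of -0.19 and -0.79.

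The genes with the pattern most like the mean of the 10 licensing genes over the 6 group means (log2 CPM of 18 libraries, each centred on its own mean) were not replication genes by name. They were Fam105b, Puf60, Dnajc8, Atp6v0c, Trappc4 and Gemin7, with root mean square differences from that mean of 0.026 to 0.038 on the log2 scale. Among the licensing genes themselves Mcm3 was closest to it, at 0.096, and Mcm7 and Pcna farthest, at 0.68 and 0.39, so that the mean describes few of its members closely. Since these 6 genes were chosen by their group means, their differences between groups follow from the choice and are not tested.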

How the data were processed

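Whole uterus was lysed in Trizol and its RNA made into TruSeq total RNA libraries, per the labels' protocols. The authors deposited 1 raw count for each gene symbol in each of 18 libraries. Reads were handled on build GRCm38, and the submitters' processing notes name HISAT2 2.1.0 and StringTie 1.3.4d. They also name Trimmomatic 0.36 and FastQC 0.11.5, SAMtools 1.6, and DESeq2 1.18.1 under R 3.4.4. Which tool counted, with what annotation and strand setting, is not given in the sources used here, so overlapping genes and near copies are uncertain.

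In R 4.3.3, edgeR 4.0.16 (filterByExpr, TMM scaling) fitted 1 robust quasi-likelihood model to the 6 groups, with 12 residual degrees of freedom. P-values were adjusted by Benjamini and Hochberg over 15494 genes within each of 9 comparisons, at a threshold of 0.05. The SE is the size of the log2 fold change over the square root of F, and intervals are 95%. Levels per kilobase used the union of exons in GENCODE M21. Ratios were compared by exact permutation tests in scipy 1.17.1. The fits were tested on simulated data.

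The licensing genes, the other lists and the alternatives were chosen with earlier results of these data known. By the naming rule, the text takes all licensing genes, Gmnn, and, among each other role list, called genes with the smallest p (up to 4 for E2 in each arm and for DOX under E2), not all of which are described, and 6 genes of like pattern. Alternatives used DESeq2 size factors, DESeq2 1.42.0 (Wald test), limma 3.58.1 (voom with quality weights), no filter, a filter of at least 1 CPM in at least 3 libraries, the compared groups alone, a replicate block, an adipocyte score as covariate, and each library left out. Libraries of a group were compared pairwise, and none was a copy of another (chi-square over its degrees of freedom 15.7 to 69.4).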

Additional observations from a re-analysis of the deposited data

Results flagged for a closer look

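The values here are the log2 response to E2 in the DOX arm minus that in the PBS arm, by edgeR's quasi-likelihood test, in genes whose response differed between the arms. Over all tested genes 22.9% passed this test. The genes of the role lists were chosen by their p with E2 or with DOX under E2, comparisons that share the E2 libraries with this one, so how many of them passed is not set against the licensing genes, of which 0 passed.

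The response was higher in the DOX arm for Rrm2 (1.27), Fen1 (0.78), Orc3 (0.44), Orc5 (0.39), Tipin (0.39), Topbp1 (0.33) and E2f6 (0.45). It was lower in the DOX arm for Rbl2 (-1.09), Cdkn1b (-0.77), Gins4 (-0.58) and Rrm2b (-0.46), the subunit of ribonucleotide reductase used outside S phase. Cops6, which overlaps Mcm7, differed by 0.55. Trappc4 (0.53), Fam105b (0.47), Puf60 (0.42), Gemin7 (0.41) and Dnajc8 (0.36) were chosen for group means like those of the licensing genes, which fixes a difference of this sign, and their values are a description only.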

How the results depend on the processing

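With E2, 7 to 9 of the 10 licensing genes were called in the DOX arm and 4 to 6 in the PBS arm when each library was left out. Over all tested genes, the fits without a library called 10715 to 10901 and 8550 to 9462, and 4684 to 6822 for DOX under E2. For DOX against PBS under E2, the 1 called licensing gene became 0 with DESeq2 size factors, with no filter, in a fit of only the groups compared, with the replicate block (Pcna 0.32, adjusted p = 0.0518) and with the adipocyte score, 2 with DESeq2's Wald test and 6 with limma voom, and ran from 0 to 5 when a library was left out. For P4 against OIL in the DOX arm, 0 became 1 with DESeq2 size factors, the Wald test, limma voom and only the groups compared (0 to 1 without a library). In the PBS arm, 1 became 2 with the adipocyte score, which added Mcm7 (-0.71, adjusted p = 0.0331), and ran from 0 to 1 without a library. For P4, the fits without a library called 3057 to 3896 of all tested genes in the DOX arm and 3146 to 4460 in the PBS arm. The E2 by DOX interaction ran from 0 to 2 without a library, where 2427 to 4898 of all tested genes were called. The cause of these changes was not tested. For DOX under E2, the shares of all tested genes called by the Wald test and by limma voom are not given here. The counts of 2 and 6 licensing genes are therefore not set against all genes.

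Correlations of deviations between same-numbered libraries ran from -0.28 to 0.37. For replicates 1, 2 and 3 they were 0.28, 0.37 and 0.09 for DOX against PBS under OIL. For E2 against OIL in the PBS arm they were -0.15, -0.28 and 0.11. With 3 libraries in a group, these values cannot settle whether the replicate numbers pair the libraries. The block changed no other call of the licensing genes. TMM and DESeq2 scaling differed by at most 0.0338 in the median log2 fold change of all genes. Over all genes, counts moved by over 1.5 times for DOX under OIL (2, against 21 by DESeq2, 1 by limma voom and 0 with the block or the adipocyte score, and also 0 without PBS OIL replicates 1 or 3 or any DOX OIL library), DOX under P4 (0, against 10 by DESeq2 and 4 by limma voom), DOX under E2 (6358, against 4068 with the adipocyte score), P4 in the PBS arm (4930, against 2925 with the adipocyte score and 3146 without PBS P4 replicate 3), P4 in the DOX arm (4618, against 3057 without DOX P4 replicate 3), the E2 by DOX interaction (3553, against 5331 by limma voom) and the P4 by DOX interaction (1, against 2 by DESeq2 and 0 with the stricter filter, only the groups compared, the block, the adipocyte score or all but 2 of the libraries left out).

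Mcm7 stayed lower under E2 in each alternative. Leaving out each library kept the Mcm7 ratio differences between E2 and OIL from -2.19 to -1.95 and from -1.51 to -1.33 in the DOX and PBS arms, between P4 and OIL from -0.49 to -0.25 and from -0.50 to -0.35, and between DOX and PBS from -0.72 to -0.57 under E2, -0.14 to 0.11 under OIL and -0.0345 to 0.12 under P4, an alternative chosen after seeing the data. Mcm10 in the DOX arm was lost with limma voom (adjusted p = 0.0578), only the groups compared (0.0873) and the adipocyte score (0.0979), and Mcm6 with the adipocyte score (0.101).

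Signs changed for values that were not called, and for no called one. With limma voom these were, for E2 against OIL, Gmnn in the DOX arm (-0.21) and Mcm6 (-0.028) and Mcm10 (-0.16) in the PBS arm, for P4 in the PBS arm Mcm3 (0.017), and for the P4 by DOX interaction Mcm7 (-0.013) and Cdt1 (-0.0079). With the adipocyte score they were Gmnn for DOX under E2 (-0.11) and for E2 in the DOX arm (-0.20), Cdt1 for E2 in the DOX arm (-0.0048), Mcm3 for P4 in the DOX arm (-0.014), Cdc6 for P4 in the PBS arm (-0.26) and Mcm6 for the P4 by DOX interaction (0.0501). Leaving out a library gave the following ranges where the sign changed. For DOX under OIL the ranges were Cdc6 -0.44 to 0.10, Mcm4 -0.064 to 0.18, Mcm6 -0.18 to 0.022, Mcm7 -0.23 to 0.038, Pcna -0.026 to 0.11. For DOX under P4 the ranges were Cdc6 -0.044 to 0.52, Mcm10 -0.34 to 0.042, Mcm2 -0.18 to 0.061, Mcm3 -0.26 to 0.024, Mcm6 -0.20 to 0.00095, Mcm7 -0.12 to 0.031, Pcna -0.14 to 0.048. For DOX under E2 the ranges were Cdt1 -0.18 to 0.21, Gmnn -0.26 to 0.68. For E2 in the DOX arm the ranges were Gmnn -0.47 to 0.41. For E2 in the PBS arm the ranges were Cdt1 -0.36 to 0.049, Mcm10 -0.20 to 0.41, Mcm6 -0.024 to 0.18. For P4 in the DOX arm the ranges were Mcm3 -0.13 to 0.21. For P4 in the PBS arm the ranges were Cdc6 -0.14 to 0.39, Mcm10 -0.095 to 0.40, Mcm3 -0.12 to 0.11, Mcm4 -0.079 to 0.0072. For the E2 by DOX interaction the ranges were Mcm7 -0.34 to 0.071. For the P4 by DOX interaction the ranges were Cdt1 -0.052 to 0.24, Mcm10 -0.0065 to 0.64, Mcm2 -0.043 to 0.37, Mcm3 -0.098 to 0.24, Mcm5 -0.061 to 0.29, Mcm6 -0.14 to 0.11, Mcm7 -0.063 to 0.20. Low counts limit Mcm10 and Cdc6 most, with as few as 16 and 32 counts in a library.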
